A study of Homo sapiens with 4 samples.

Results

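The comparison described here sets a HEK293 library with induced MSI1 against the empty-vector library of the same series. It covered every gene with a mean of at least 1 cRPKM over both libraries, MSI1 itself left out, which gave 12678 of the 40188 genes with values, 11578 of them protein-coding. A cRPKM (a corrected RPKM) scales the reads of a gene by its length and by the depth of the library, so levels of different genes can be compared on it. HEK293 is a human embryonic kidney cell line. Stable lines carried a construct that doxycycline switches on, and all lines, the empty-vector control included, received 1 µg/mL doxycycline for 24 h in medium with tetracycline-free serum. The 4 groups were an empty vector, MSI1, SRRM3 and SRRM4, with 1 polyA-selected, stranded RNA-seq library each and between 60288244 and 63003121 counted reads. The sources used here do not give the promoter of the construct, or whether a line was 1 clone or a pool.

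MSI1 (Musashi RNA-binding protein 1) is an RNA-binding protein of neural stem cells, other progenitors and photoreceptors. It binds short single-stranded motifs with a UAG core, mostly in the untranslated end of mRNAs, and is known for changing translation, stability and splicing of the transcripts it binds. The values used here are transcript levels per gene, so they show neither translation nor the inclusion of exons.

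Each group has 1 library, so the differences were not checked against replicates and carry no p-value, and an effect of MSI1 cannot be told apart from a difference between the lines. Ratios are MSI1 over empty vector after scaling for depth, with exact 95% counting intervals, which cover counting error only, since reads are not independent molecules. A gene was counted as higher or lower when its log2 fold, computed on cRPKM plus 0.5, was at least 1 in size and its interval excluded 1. In a bulk library, fewer cells of a type and less RNA per cell cannot be told apart.

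MSI1 stood at 8.38 cRPKM in the empty vector, 62.43 in MSI1, 10.56 in SRRM3 and 8.19 in SRRM4. The library labelled MSI1 was the highest, at 7.45-fold the empty vector (7.06 to 7.87), and the other lines carried MSI1 mRNA of their own. Its paralog MSI2, which recognises a like motif, was at 21.78 cRPKM in the empty vector, 17.54 in MSI1, 20.21 in SRRM3 and 18.71 in SRRM4, with a ratio of 0.805 (0.780 to 0.831) that made MSI1 the lowest library. Markers of HEK293 were present, with 13 of 14 in the comparison. Of the markers of other cell types, none of 10 for blood, none of 8 for endothelium and 1 of 10 for fibroblasts (COL1A1, ratio 1.30) reached the filter, and the blood marker PTPRC had no read in either library. Of 12 epithelial markers 7 were compared and all 7 lay above 0, against 53.5% of all compared genes, with a median log2 fold of 0.35. Of these 7, 5 had an interval above 1, against 32.4% of all compared genes. The sum over the list was 208 cRPKM in MSI1 against 163 in the empty vector. Each of these 7 also lay above the empty vector in SRRM3. In SRRM4, CDH1, EPCAM, CLDN7 and ESRP1 lay below the empty vector, and KRT19, CLDN3 and ESRP2 above it. KRT19 was at 85.37 cRPKM in the empty vector, 110.36 in MSI1 and 124.87 in SRRM3. The part of these markers in the results below was not tested.

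Most genes differed little between the libraries. The median log2 fold over all compared genes was 0.02, 95% of them lay between -0.43 and 0.51, and 97.0% lay within 1.5-fold. By the rule above, 29 genes (0.229%) were higher in MSI1 and 19 (0.15%) were lower. With CPM and TMM scaling (a trimmed-mean factor per library) the split was 27 and 27, so that higher genes made up 50.0% of the calls against 60.4%. Of the higher genes 21 were protein-coding, and of the lower genes 13 were. In every one of these the MSI1 library was the highest, or the lowest, of all 4. The rule used the MSI1 value, so this follows in large part from how the genes were picked and is no separate support. Calls sat among the weaker transcripts: 23 higher and 11 lower genes had a mean of 1 to 5 cRPKM, and none of the 721 genes at 100 cRPKM or more was called.

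**Figure D1:**
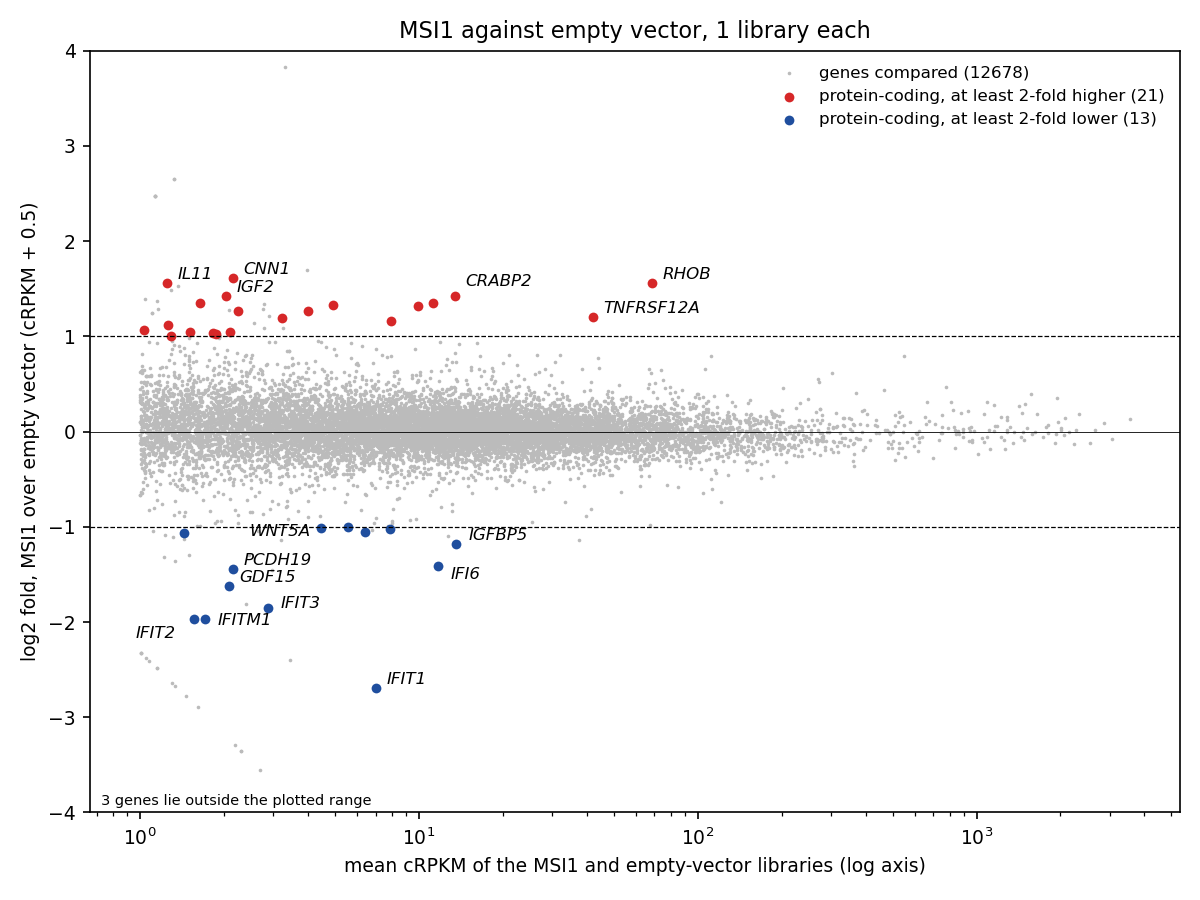
Log2 fold of MSI1 over empty vector (cRPKM plus 0.5) against the mean cRPKM of both libraries on a log axis, 1 dot per gene, with 2-fold marked by dashed lines. The 21 higher and 13 lower protein-coding genes are coloured, and most of the 12678 genes lie close to 0; the grey dots beyond the lines are short RNAs and other genes with few reads, non-coding calls and genes whose interval includes 1, and 3 of them lie outside the plotted range.

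The 4 protein-coding genes counted as lower with the lowest ratios belonged to the interferon response. Type I interferon activates a transcription factor complex that holds IRF9, binds a DNA element called ISRE and switches on a set of antiviral genes. Of the 13 protein-coding genes counted as lower, 5 were such effectors: IFIT1, IFIT2, IFIT3, IFITM1 and IFI6. Of 40 effectors on the list, 24 reached the filter, and their median log2 fold was -0.17 against 0.02 for all genes. Among these 24, 14 had an interval below 1, against 27.6% of all genes, 2 had one above 1, and 8 were at least 1.5-fold lower, against 0.749% of all genes. IFIT2, IFIT3 and IFITM1 were under 1 cRPKM in MSI1 and passed the filter through their empty-vector value. The list was known to hold low genes before it was drawn up for this comparison, so these counts are a description.

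IFIT1 (GRCh38 chromosome 10, 89392546 to 89406486, plus strand), which captures viral RNA that lacks host cap methylation, was at 12.54 cRPKM in the empty vector, 1.51 in MSI1, 12.30 in SRRM3 and 3.25 in SRRM4. The ratio was 0.121 (0.102 to 0.142). MSI1 was the lowest library, SRRM4 the next, and SRRM3 stood at the level of the empty vector. IFIT2 (chromosome 10, 89283694 to 89309276), a partner in the same complex, was at 2.79, 0.34, 2.28 and 0.89 cRPKM in that order, with a ratio of 0.123 (0.0949 to 0.156). IFIT3 (chromosome 10, 89327894 to 89340971), which stabilises IFIT1, was at 4.80, 0.97, 3.99 and 1.44 cRPKM, a ratio of 0.202 (0.166 to 0.243). All 3 kept the same order of libraries, with MSI1 lowest and SRRM4 second. IFIT5, which lies in the same cluster, was at 12.25, 10.67, 11.25 and 10.29 cRPKM and had a ratio of 0.871, so the cluster's genes did not share 1 ratio. Reads that could match more than 1 IFIT or IFITM gene may have been split among them.

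IFITM1 (chromosome 11, 313506 to 315272), a membrane protein that blocks virus entry, was at 3.02 cRPKM in the empty vector, 0.40 in MSI1, 5.45 in SRRM3 and 1.24 in SRRM4, with a ratio of 0.133 (0.0751 to 0.222). IFI6 (chromosome 1, 27666061 to 27672218, minus strand), an antiviral protein of the endoplasmic reticulum, was at 17.21, 6.15, 24.83 and 9.40 cRPKM, a ratio of 0.358 (0.313 to 0.408). For both genes SRRM3 was the highest library and MSI1 the lowest. ISG15, a ubiquitin-like modifier, lay just short of the 2-fold line at 10.46, 5.01, 14.43 and 5.44 cRPKM, with a ratio of 0.479 (0.404 to 0.566). MSI1 and SRRM4 were close to each other for ISG15, with a ratio of MSI1 over SRRM4 of 0.922 (0.759 to 1.12). IFITM3 had a ratio of 0.505 (0.424 to 0.600), OAS3, a sensor of double-stranded RNA, 0.573 (0.539 to 0.609), and IFI16, a DNA sensor, 0.705 (0.669 to 0.743).

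The promoters of the lower effectors are shown because 4 of them hold ISRE core letters. The motif searched was GAAA, any 2 bases and GAAA again or, on the other strand, TTTC, any 2 bases and TTTC, in the 250 bases before the RefSeq start, and it is in capitals below. IFIT1 (chr10:89392373-89392622, plus strand) had 2 matches, at 116 to 107 and 103 to 94 bases before the start. IFIT3 (chr10:89327747-89327996, plus strand) had 2, IFI6 (chr1:27672193-27672442, minus strand) had 3, and IFITM1 (chr11:313790-314039, plus strand) had 1, at 40 to 31 bases before the start. The sequences are from RefSeq on GRCh38.p14, each in the direction of its gene, and GENCODE 29 places the outermost end of these genes at other bases than RefSeq does.
IFIT1: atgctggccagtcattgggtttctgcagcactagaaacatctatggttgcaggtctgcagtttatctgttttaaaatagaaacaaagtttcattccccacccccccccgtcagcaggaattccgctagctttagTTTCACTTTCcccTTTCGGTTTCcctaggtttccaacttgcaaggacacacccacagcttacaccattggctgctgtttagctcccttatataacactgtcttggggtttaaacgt
IFIT3: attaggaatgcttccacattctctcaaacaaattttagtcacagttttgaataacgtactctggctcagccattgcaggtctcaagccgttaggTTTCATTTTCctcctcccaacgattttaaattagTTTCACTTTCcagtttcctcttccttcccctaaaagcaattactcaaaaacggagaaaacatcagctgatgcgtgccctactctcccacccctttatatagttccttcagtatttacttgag
IFI6: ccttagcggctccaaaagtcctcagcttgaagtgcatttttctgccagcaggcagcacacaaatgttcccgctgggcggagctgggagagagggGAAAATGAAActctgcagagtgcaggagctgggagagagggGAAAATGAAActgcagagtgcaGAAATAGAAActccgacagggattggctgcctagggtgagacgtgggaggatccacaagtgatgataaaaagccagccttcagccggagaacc
IFITM1: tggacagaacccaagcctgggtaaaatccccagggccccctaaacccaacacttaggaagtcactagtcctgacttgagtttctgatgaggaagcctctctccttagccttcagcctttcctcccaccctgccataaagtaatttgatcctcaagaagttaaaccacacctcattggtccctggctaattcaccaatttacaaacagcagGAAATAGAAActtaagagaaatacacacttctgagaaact

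Of the genes counted as lower, 11 had a RefSeq promoter here, and 4 of these held the motif, IFIT1, IFIT3, IFI6 and IFITM1. None of 19 promoters of higher genes did. Of all 27305 RefSeq promoters given, 3.07% held it, and over the 9912 promoters of compared genes 2.16% did. The 214 compared genes that held it had a median log2 fold of 0.01. Of these 214, the 4 just named (1.87%) were counted as lower, against 11 of the 9912 compared genes with a promoter. None of the 214 was counted as higher, against 19 of the 9912. Within the effector list 15 of 21 promoters held the motif, with a median log2 fold of -0.34 and 12 below 0. HERC5 with 3 matches (0.17), IFI27 with 2 (0.16) and PARP12 with 1 (0.26) held the motif and lay above 0. The 6 without it had a median of -0.0012 and 3 below 0, the lowest being IFI16 at -0.49. Since the list was known to hold low genes, this contrast is a description only. A match is a description of letters in this window and was not tested as a binding site.

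Of 16 weakly expressed effectors, which the filter left out, 11 had a counting interval below 1 and 1 had an interval above 1. Over all 11739 genes under the filter with a read, many of them with few reads, these shares were 3.14% and 6.69%. The effector above 1 was ISG20, an RNase, with a ratio of 1.79. OAS1, which makes the activator of RNase L, had 52 reads in the empty vector, 0 in MSI1, 76 in SRRM3 and 14 in SRRM4. In the same order of libraries OAS2 had 51, 0, 75 and 2 reads and IFI44 had 40, 0, 50 and 2. MX2, a restriction factor of retroviruses, had 18, 0, 37 and 2. SRRM4 thus also lay below the empty vector for all of them. With a floor of 3 reads in place of 0, OAS1 was 17.6-fold lower in MSI1, OAS2 17.3-fold, IFI44 13.5-fold and MX2 6.09-fold. The upper ends of their intervals, ratios of 0.0724, 0.0739, 0.0952 and 0.224, allow smaller differences. BST2 (tetherin), which holds budding virions at the cell surface, had 55, 2, 105 and 20 reads in the order empty vector, MSI1, SRRM3 and SRRM4. RSAD2 (viperin) was at 101, 11, 123 and 6 reads, a ratio of 0.107, and IFI44L at 79, 5, 84 and 15, a ratio of 0.0624. For RSAD2 the SRRM4 library, not MSI1, was the lowest. Over the whole list, passing the filter or not, 25 of 40 genes had an interval below 1 and 3 above, against 15.8% and 20% of all genes with a read.

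Not every effector was low. HERC5, the ligase that attaches ISG15, was at 19 cRPKM in the empty vector, 21.43 in MSI1, 18.65 in SRRM3 and 18.86 in SRRM4, with a ratio of 1.13. USP18, which removes ISG15 and dampens the receptor, was at 15.62, 15.02, 16.55 and 14.37 cRPKM, a ratio of 0.961. PARP12, an antiviral ADP-ribosyltransferase, had a ratio of 1.23, and MX1 one of 0.861 from 150 and 131 reads. The low genes were therefore a subset of the list.

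**Figure D2:**
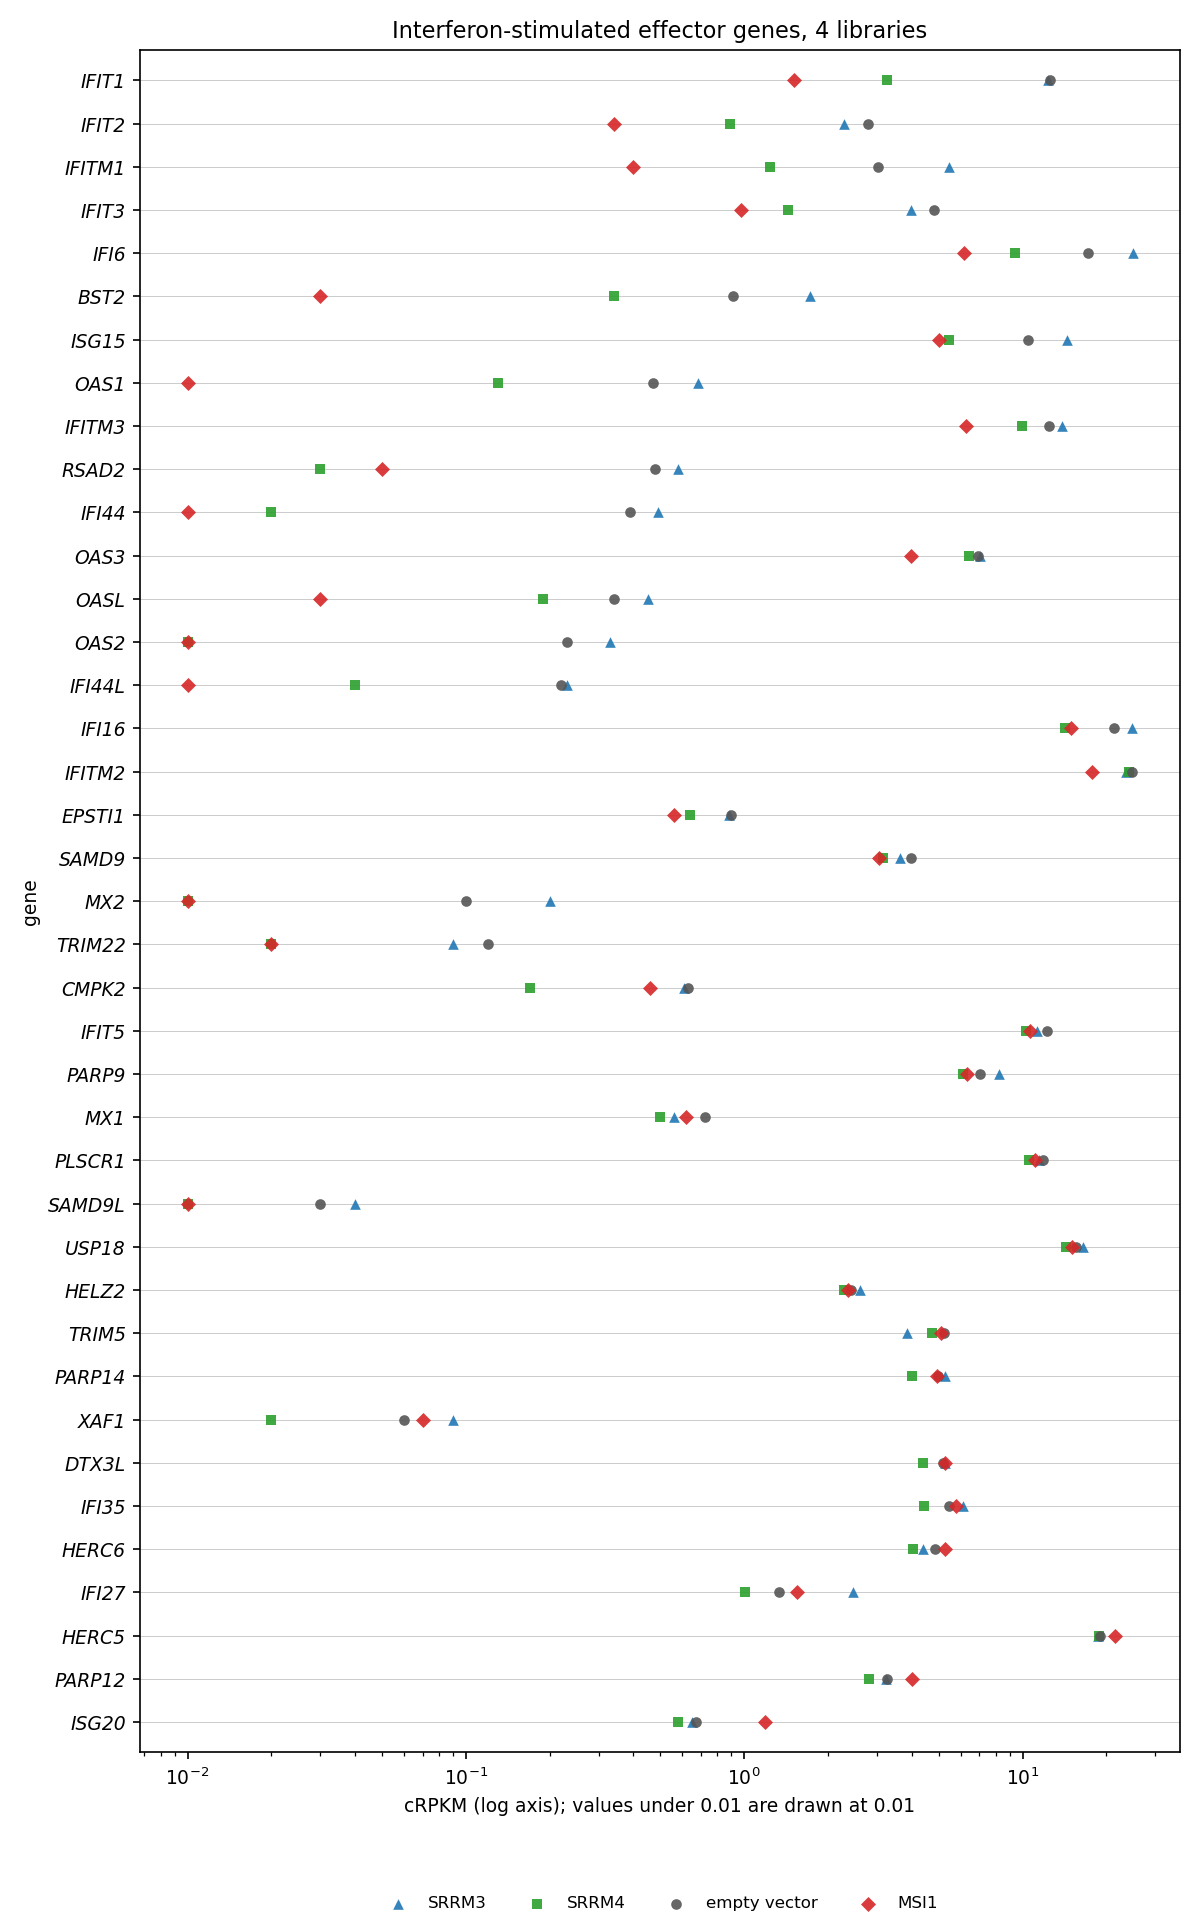
cRPKM on a log axis of the interferon-stimulated effectors with a read in MSI1 or the empty vector, ordered by log2 fold, with 1 symbol per library; values under 0.01 are drawn at 0.01. MSI1 is left of the empty vector for the genes at the top, such as IFIT1 at 1.51 against 12.54, and the libraries coincide for genes such as USP18.

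Genes upstream of these effectors were then compared. Of 22 sensors and signalling genes compared, 14 were below 0 with a median log2 fold of -0.04, and 2 were at least 1.5-fold lower, against 0.749% of all genes. These were RIGI, a sensor of viral RNA, at 4.40 cRPKM in the empty vector, 2.36 in MSI1, 4 in SRRM3 and 2.67 in SRRM4 (ratio 0.536), and IRF9, the DNA-binding subunit of the interferon-activated complex, at 4.26, 2.64, 5.14 and 3.32 (0.619). Both are also known as interferon-induced, and MSI1 was the lowest library for both. STAT2, a partner of IRF9, had a ratio of 1.18 and IRF3, which acts downstream of RNA sensors, 1.29. The interferon gene IFNB1 had 7 reads in the empty vector, 0 in MSI1, 2 in SRRM3 and 3 in SRRM4. For IFNL1 these were 8, 1, 4 and 1, so SRRM4 was as low as MSI1, and both genes rest on few reads. Genes of class I antigen presentation, another interferon-responsive group, had a median log2 fold of 0.12 over 13 members with none at 1.5-fold, and HLA-B had a ratio of 1.38.

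There were 8 other lower protein-coding genes. In Wnt signalling, WNT5A (chromosome 3, 55465715 to 55490539), a ligand of the pathway's beta-catenin-independent branch, was at 6.11 cRPKM in the empty vector, 2.78 in MSI1, 6.94 in SRRM3 and 5.37 in SRRM4. Its ratio was 0.456 (0.423 to 0.491). LGR5 (chromosome 12, 71439770 to 71586310), a receptor for R-spondins and a stem cell marker, was at 8.86, 4, 9.23 and 9.62 cRPKM, a ratio of 0.452 (0.421 to 0.485). SHISA2, which holds Wnt and FGF receptors back in the endoplasmic reticulum, was at 10.77, 5.04, 9.04 and 10.19 cRPKM, a ratio of 0.468. In these 3 genes the MSI1 library stood apart below the other 3, which lay close together. Of 35 Wnt receptors, ligands and feedback genes compared, 23 were below 0 with a median log2 fold of -0.09. The receptor FZD4 had a ratio of 0.646 and the ligand WNT11 one of 1.49.

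IGFBP5 (chromosome 2, 216672105 to 216695525, minus strand), a secreted binding protein that controls access of IGFs to their receptor, was at 19.10 cRPKM in the empty vector, 8.16 in MSI1, 29.03 in SRRM3 and 13.42 in SRRM4. The ratio was 0.427 (0.410 to 0.446), from 7313 and 3171 reads, the most of any gene counted as lower. The growth factor itself, IGF2 (chromosome 11, 2129112 to 2149603, minus strand), was on the other side. IGF2 was at 0.88, 3.20, 0.96 and 0.73 cRPKM, a ratio of 3.65 (3.20 to 4.18), with MSI1 the highest library and the other 3 within a narrow range. Reads of IGF2 may be shared with the overlapping read-through gene INS-IGF2. H19, the imprinted neighbour of IGF2, was near 0 in both libraries at 0.06 and 0.05 cRPKM. Ratios were 1.15 for the receptor IGF1R, 1.10 for the scavenger receptor IGF2R, 0.675 for IGFBP7, 0.920 for IGFBP2 and 0.728 for the adaptor IRS4, and the median log2 fold of the 15 axis genes compared was -0.06, or 0.0089 with at least 5 cRPKM.

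PCDH19 (chromosome X, 100291644 to 100410273), a delta-protocadherin of neuronal adhesion, was at 3.40 cRPKM in the empty vector, 0.93 in MSI1, 1.65 in SRRM3 and 2.06 in SRRM4, with a ratio of 0.273 (0.245 to 0.302). All 3 lines with a transgene lay below the empty vector, and MSI1 was the lowest. Of 12 protocadherins and classical cadherins compared, 8 were below 0 with a median log2 fold of -0.19, among them PCDH9 (0.552), PCDH20 (0.584) and CDH11 (0.690), while CDH1 had a ratio of 1.43. GDF15 (chromosome 19, 18374731 to 18389176), a stress-induced cytokine, was at 3.41, 0.77, 2.36 and 1.95 cRPKM, a ratio of 0.226 (0.166 to 0.304). RGS16, which turns off G-protein signalling, was at 7.59, 3.53, 6.27 and 6.45 cRPKM (0.466), and DNASE1L2, a deoxyribonuclease, at 2.12, 0.75, 3.11 and 1.88 (0.353). The 3 related deoxyribonucleases DNASE1, DNASE1L1 and DNASE2 had ratios of 1.19, 1.20 and 1.16.

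**Figure D3:**
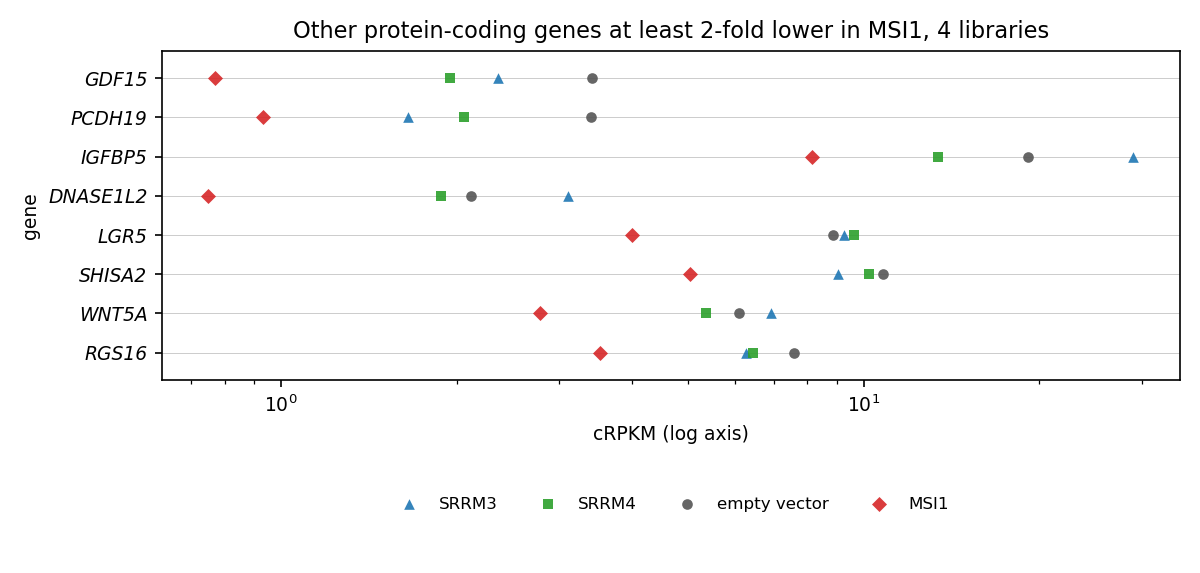
cRPKM on a log axis of the 8 protein-coding genes counted as lower in MSI1 that are not on the effector list, with 1 symbol per library. MSI1 is the leftmost library in every row, and for LGR5, SHISA2, WNT5A and RGS16 the other 3 libraries lie close together.

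Among the higher genes, RHOB was the most abundant. RHOB (chromosome 2, 20447074 to 20449445), a small GTPase known as an immediate early gene, was at 34.54 cRPKM in the empty vector, 102.73 in MSI1, 39.16 in SRRM3 and 31.31 in SRRM4, with a ratio of 2.97 (2.88 to 3.07). The other 3 libraries lay between 31.31 and 39.16. NGEF (ephexin-1), a guanine nucleotide exchange factor, was at 1.20, 3.02, 2 and 1.23 cRPKM, a ratio of 2.51 (2.16 to 2.94). For NGEF the SRRM3 library also lay above the empty vector.

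Immediate early genes, which respond to stimuli before new protein is made, had a median log2 fold of 0.12 over 24 members, with 5 at least 1.5-fold higher, against 1.51% of all genes, and 1 lower. JUN, a subunit of the AP-1 factor, was at 81.77 cRPKM in the empty vector, 142.38 in MSI1, 89.38 in SRRM3 and 85.85 in SRRM4, a ratio of 1.74 (1.71 to 1.77). ATF3, ZFP36, JUND and PPP1R15A had ratios of 1.60, 1.76, 1.55 and 1.52. MYC had a ratio of 0.564 and stood at 15.31, 8.63, 9.83 and 15.11 cRPKM, low in MSI1 and SRRM3. KLF2 (chromosome 19, 16324817 to 16327874), a transcription factor that responds to flow and to several kinases, was at 1.12, 3.39, 1.62 and 0.99 cRPKM, a ratio of 3.02 (2.49 to 3.69). KLF6 had a ratio of 1.74, KLF4 1.00, and the 12 KLF genes compared had a median log2 fold of -0.05.

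CNN1, TNNT1 and ANKRD1, known from muscle, were also higher. CNN1 (calponin 1; chromosome 19, 11538717 to 11550323), an actin-binding protein of smooth muscle, was at 0.81 cRPKM in the empty vector, 3.50 in MSI1, 0.58 in SRRM3 and 0.83 in SRRM4. Its ratio was 4.30 (3.36 to 5.55). TNNT1, slow skeletal troponin T, was at 6.08, 16.34, 10.04 and 6.75 cRPKM, a ratio of 2.69 (2.37 to 3.06). MSI1 was the highest library for both, and SRRM3 lay above the empty vector for TNNT1 and not for CNN1. ANKRD1 (chromosome 10, 90912096 to 90921276), an ankyrin-repeat protein of muscle and a target of YAP, was at 5.48, 14.43, 1.20 and 6.98 cRPKM, a ratio of 2.63 (2.41 to 2.88). SRRM3 stood far below the empty vector for ANKRD1, so its 4 libraries spread more widely than those of CNN1 and TNNT1.

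CNN1 and ANKRD1 were the 2 members at least 1.5-fold higher among 29 targets of YAP and SRF compared, against 1.51% of all genes, and the median log2 fold of the list was 0.06. CNN1 was under 1 cRPKM in the empty vector and passed the filter through its MSI1 value. CCN2, a secreted YAP target, was lower, at 16.94, 9.27, 3.31 and 30.52 cRPKM with a ratio of 0.547 (0.512 to 0.585). CCN1 had a ratio of 1.05 and TAGLN, another smooth-muscle gene, 0.769. The list thus held members on both sides. TNFRSF12A (chromosome 16, 3018445 to 3022383), the receptor of the cytokine TWEAK, was at 25.26, 58.92, 12.02 and 35.67 cRPKM, a ratio of 2.33 (2.20 to 2.48), with the same order of libraries as ANKRD1.

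IL11 and CNTFR, both of the gp130 cytokine family, were among the higher genes. IL11 (chromosome 19, 55364389 to 55370463, minus strand), a cytokine that signals through gp130, was at 0.39 cRPKM in the empty vector, 2.12 in MSI1, 0.43 in SRRM3 and 0.37 in SRRM4. The counts were 28 and 154 reads and the ratio 5.42 (3.61 to 8.42), the highest of the protein-coding genes counted. CNTFR, the receptor subunit for ciliary neurotrophic factor, which also uses gp130, was at 0.81, 2.21, 1.09 and 0.76 cRPKM, a ratio of 2.72 (2.16 to 3.45). Other secreted peptides were TAC1, the precursor of substance P, with a ratio of 2.74 (2.28 to 3.31), and ADM2, an adrenomedullin-like peptide, with 2.73 (2.29 to 3.27). These 4 were weakly expressed, and the 3 other libraries lay close to each other for IL11 and ADM2.

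The cellular retinoic acid-binding proteins, which carry retinoic acid within the cell, were both higher. CRABP2 (chromosome 1, 156699606 to 156705816, minus strand) was at 7.11 cRPKM in the empty vector, 19.89 in MSI1, 13.61 in SRRM3 and 6.74 in SRRM4, a ratio of 2.80 (2.5 to 3.14). CRABP1 (chromosome 15, 78340324 to 78348230) was at 1.76, 4.68, 3.14 and 1.81 cRPKM, a ratio of 2.66 (2.04 to 3.49). For both genes SRRM3 lay between MSI1 and the empty vector, and SRRM4 was at the level of the empty vector. MSI1 over SRRM3 was 1.46 (1.34 to 1.60) for CRABP2 and 1.49 (1.20 to 1.85) for CRABP1. Other genes of the retinoic acid pathway differed less. RARB, a receptor and classic target of retinoic acid, had a ratio of 0.728, the synthetic enzyme ALDH1A2 1.24 and the partner receptor RXRB 1.29. The median log2 fold of the 23 genes compared was 0.02, and it was -0.0002 after centring on the median of all genes and -0.02 with TMM scaling.

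The remaining higher protein-coding genes had no list in common. HSPB8, a small heat shock protein that works with BAG3, was at 4.72 cRPKM in the empty vector, 11.16 in MSI1, 3.24 in SRRM3 and 5.32 in SRRM4, a ratio of 2.36 (2.15 to 2.60). PLPP2, a lipid phosphate phosphatase, was at 2.60, 7.27, 3.96 and 2.76 cRPKM (2.80), and its relatives PLPP1 and PLPP3 had ratios of 1.06 and 0.860. SLC6A17, a vesicular amino acid transporter of neurons, was at 0.61, 1.92, 0.97 and 0.88 cRPKM (3.16). CPA4, a carboxypeptidase, was at 0.71, 2.58, 0.38 and 0.81 cRPKM (3.63). DNAH17, an axonemal dynein heavy chain, had a ratio of 3.19, FNDC1, a fibronectin type III protein, 2.51, and PRRX2, a homeobox factor of mesenchyme, 2.56. In each of these 7 genes the MSI1 library was the highest of the 4.

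**Figure D4:**
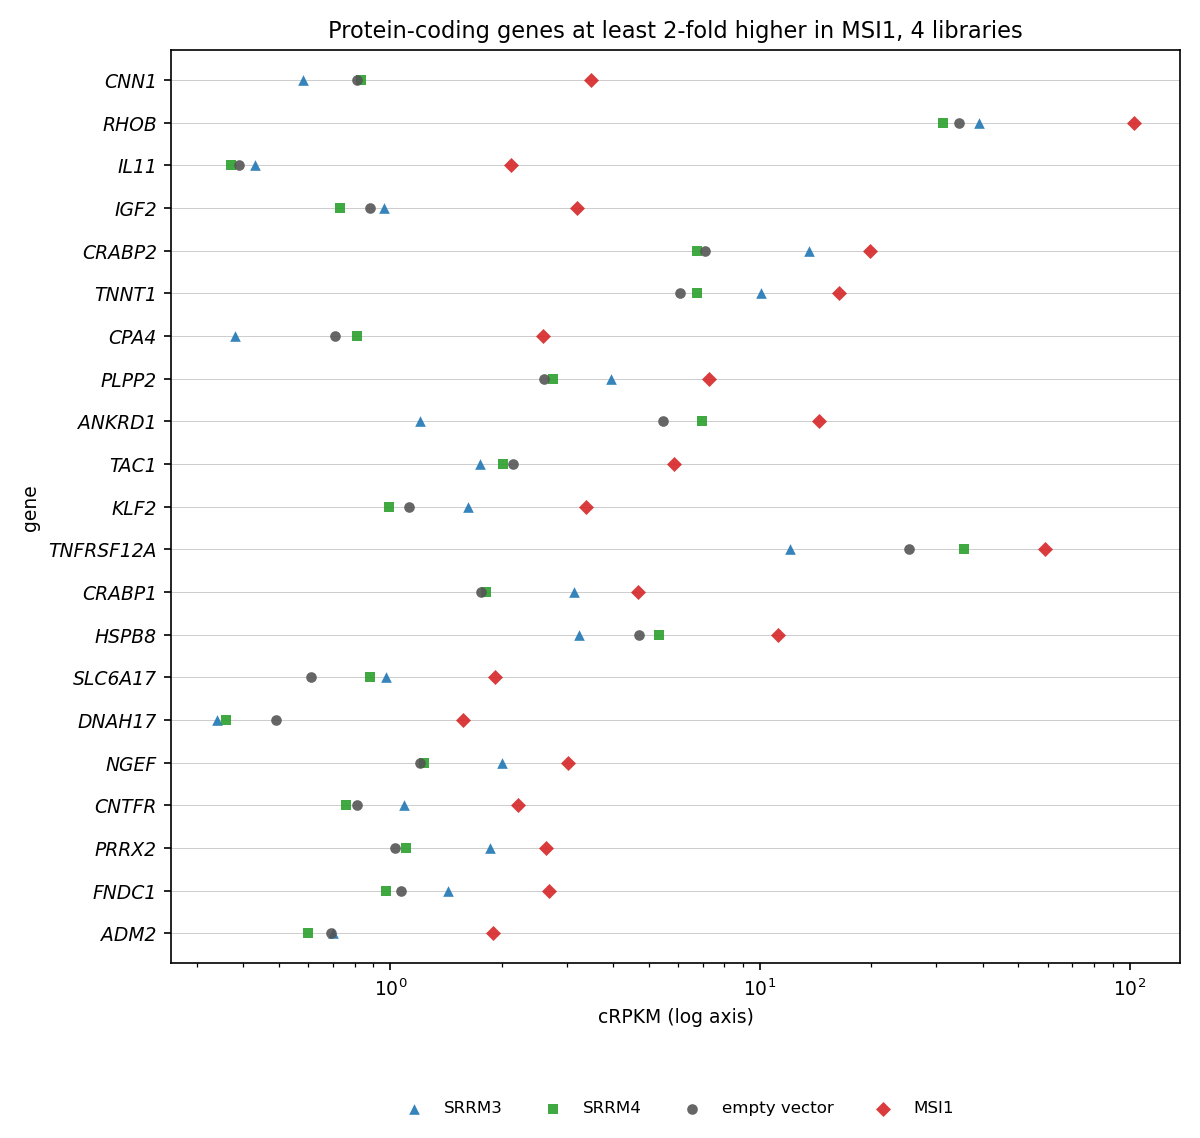
cRPKM on a log axis of the 21 protein-coding genes counted as higher in MSI1, ordered by log2 fold, with 1 symbol per library. MSI1 is the rightmost library in every row. SRRM3 lies between it and the empty vector for genes such as CRABP2, CRABP1, TNNT1 and PLPP2. It lies below the empty vector for others, among them ANKRD1, TNFRSF12A, CPA4, HSPB8 and CNN1.

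Lists of stress-response genes differed by small amounts and not in 1 direction. Of 31 targets of ATF4, the factor of the integrated stress response, 22 were above 0 with a median log2 fold of 0.14. ATF4 itself was at 238.51 cRPKM in the empty vector, 366.28 in MSI1, 234.21 in SRRM3 and 248.64 in SRRM4, a ratio of 1.54 (1.51 to 1.56). CHAC1, which degrades glutathione, was at 2.91, 6.04, 2.83 and 2.84 cRPKM, a ratio of 2.08 (1.82 to 2.38) and a log2 fold of 0.94, just under the 2-fold line on the scale used. The cystine carrier SLC7A11, the asparagine synthetase ASNS and DDIT3 (CHOP) had ratios of 1.85, 1.39 and 1.40. For ATF4 and CHAC1 the other 3 libraries lay close together. GDF15, described above, is on the same list and was lower.

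Of 18 cytosolic heat shock genes 16 were above 0, with a median log2 fold of 0.25; HSPB1, BAG3 and HSPA1B had ratios of 1.54, 1.45 and 1.38. HSPB1 was as high in SRRM3, at 85.14 cRPKM against 82.09 in MSI1 and 53.45 in the empty vector. HERPUD1, of the endoplasmic reticulum's quality control, had a ratio of 1.77, while the 22 genes of the unfolded protein response had 11 members on each side of 0. Targets of p53 had a median log2 fold of -0.14 over 28 genes, with 19 below 0, and CDKN1A, the best-known of them, had a ratio of 1.25. Targets and factors of nonsense-mediated decay had 21 of 24 above 0 (median 0.15), and mitochondrially encoded mRNAs 13 of 13 (median 0.28). SRRM3 was higher than MSI1 for the mitochondrial MT-CO1, at 2058.85 against 1778.61 cRPKM with 1348.91 in the empty vector. SR proteins and their cofactors had 26 of 31 below 0 (median -0.10). Against these counts, 53.5% of all compared genes lay above 0 and 46.0% below.

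**Figure D5:**
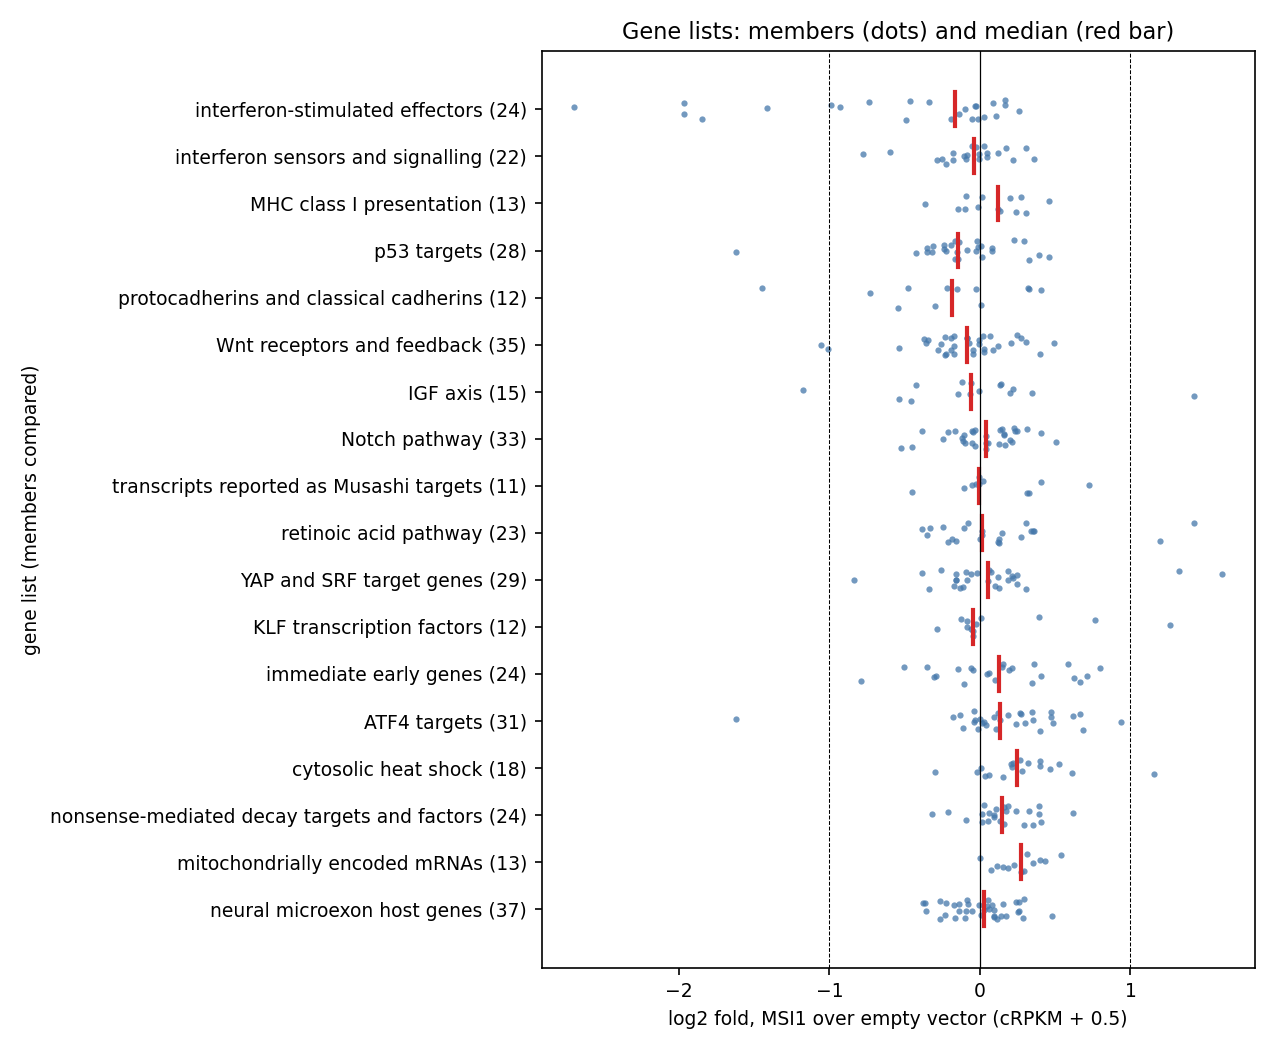
Log2 fold of MSI1 over empty vector (cRPKM plus 0.5) for the compared members of 18 gene lists, 1 dot per gene, with the list's median as a red bar and 2-fold as dashed lines. Medians lie between -0.19 and 0.28, and 5 interferon-stimulated effectors lie beyond 2-fold to the left.

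Transcripts reported as targets of Musashi proteins elsewhere lay on both sides of 0. Of 13 on the list 11 were compared, with 5 above 0, 6 below and a median log2 fold of -0.01. NUMB, an inhibitor of Notch whose translation Musashi is known to repress, was at 15.54 cRPKM in the empty vector, 19.45 in MSI1, 18.72 in SRRM3 and 16.86 in SRRM4, a ratio of 1.25 (1.20 to 1.31). SRRM3 was nearly as high as MSI1 for NUMB. CD44, a surface receptor for hyaluronan, was at 10.14, 17.11, 7.02 and 8.08 cRPKM, a ratio of 1.69 (1.59 to 1.79), and was the only member at least 1.5-fold different, against 2.26% of all genes in either direction. The Notch ligand JAG1 had a ratio of 0.717 (0.683 to 0.752), CDKN1B 0.928 and APC 1.02. In the Notch pathway 33 genes were compared, none was 1.5-fold different and the median was 0.04, or -0.03 with at least 5 cRPKM; the target HEY1 had a ratio of 0.690 and the receptor NOTCH3 1.47.

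The log2 folds were then set against the UAG core of the Musashi motif. Over 10387 genes with an annotated 3′ UTR of at least 200 bases, Spearman's rank correlation between UAG per kilobase and the log2 fold was -0.02. This is a correlation across genes, which are not independent replicates, and base composition is shared: it was -0.08 for the AU content and between -0.04 and -0.07 for the 5 other trinucleotides of the same letters. Within 3 equal groups of genes of low, middle and high AU content, the correlation with UAG was -0.02, 0.05 and 0.08. Across 5 equal groups of genes from the fewest to the most UAG, the median log2 folds were 0.03, 0.00, 0.01, 0.01 and 0.01. Members on both sides had dense and sparse 3′ UTRs. RHOB had 4 UAG in 1389 bases (2.88 per kilobase), IGF2 4.64 per kilobase, CRABP2 16.7 and CRABP1 23.7, while among the lower genes IFIT1 had 21.7 per kilobase, WNT5A 15.1, IGFBP5 10.1 and GDF15 none in 241 bases.

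The study's title concerns retinal microexons. The 37 host genes of neural microexons compared had a median log2 fold of 0.03, which turned to -0.01 with TMM scaling, and none was 1.5-fold different. Of 32 photoreceptor genes 3 reached the filter. Of 36 neuronal genes repressed by REST, 15 were compared, with 10 above 0, and 4 were at least 1.5-fold higher, against 1.51% of all genes: SLC6A17, TUBB3 (ratio 1.77), L1CAM (1.98) and CHGA (1.84). SLC6A17, L1CAM and CHGA were under 1 cRPKM in the empty vector and passed the filter through their MSI1 value. Their part in this count is thus no separate support. CHGA was at 0.76 cRPKM in the empty vector, 1.39 in MSI1, 20.81 in SRRM3 and 9.70 in SRRM4. Its MSI1 value thus lay above the empty vector and far below both SRRM libraries. L1CAM was also lower in MSI1 than in both SRRM libraries. For TUBB3 (12.01, 21.20, 16.85 and 15.14 cRPKM in the same order) and SLC6A17, MSI1 was the highest library.

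Of the 14 non-coding genes counted, most were weak. LINC01554 was at 0.47 cRPKM in the empty vector, 1.86 in MSI1, 0.65 in SRRM3 and 0.61 in SRRM4, a ratio of 3.96 (2.91 to 5.48), and LINC02972 and ZNF667-AS1 had ratios of 2.43 and 2.45. The lincRNA KC877982.1 on chromosome X was the most abundant of the lower ones, at 52.03, 23.30, 49.48 and 35.38 cRPKM, a ratio of 0.448 (0.407 to 0.493). CIRBP-AS1 had a ratio of 0.414, and since the sources used here do not say whether strand was used in counting, its reads cannot be told apart from those of the overlapping CIRBP. The other calls were 2 further lincRNAs (AC092687.3 with 2.75 and AC004080.2 with 0.333) and small RNA genes with at most 24 reads in MSI1 or the empty vector: MT-TN, SNORA63, SNORA56, MIR6723, SNORD49A, SNORD104 and MIR7110. For MIR7110, with 6 reads in the empty vector and 0 in MSI1, the SRRM3 library was also at 0. With CPM and TMM factors, LINC02972, AC092687.3, AC004080.2 and the small RNA genes just named fell under the 2-fold line.

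Close to the threshold, the members just inside were ZNF667-AS1, ADM2 and FNDC1 (log2 folds of 1.00, 1.01 and 1.02) and RGS16, WNT5A and SHISA2 (-1.01, -1.01 and -1.02). Just outside were MYG1-AS1, FAM162B and YBX2 (0.98, 0.98 and 0.95) and SNCAIP, ISG15 and CA5B (-0.99 each). A further 15 genes were 2-fold higher and 30 were 2-fold lower with intervals that included 1; none of them had more than 22 reads over both libraries, and 3 and 2 of them were protein-coding.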

How the data were processed

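PolyA-selected, stranded RNA-seq of 4 HEK293 lines was compared, grouped by genotype per the labels, with 1 library each. The deposited files give, per Ensembl gene, a cRPKM (a corrected RPKM) and a whole-number read count made by the authors; the submitters' processing notes name GRCh38 (hg38). The aligner, counter, annotation release and use of strand were not given in the sources used here. Of 41614 listed genes 1426 had no value and were left out. Within rounding, the deposited RPKM values scaled as count over library total: over 7930 genes the log2 ratios of both between MSI1 and empty vector differed by at most 0.003. Symbols, gene types and coordinates (39941 genes) came from a name table and GENCODE 29.

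Log2 folds used a pseudocount of 0.5 cRPKM, which understates differences of weak genes, and genes with a mean of at least 1 cRPKM. Count ratios have exact conditional (Clopper-Pearson) 95% intervals. For a fold with a 0, a floor of 3 reads, about 0.05 CPM, was put in its place, which is not a bound. The median compared gene had 4382 reads over both libraries. Every gene past the 2-fold rule was named, with the given markers, MSI2, and up to 8 members per list with the largest fold plus members defining a role; weak interferon genes, YBX2 and other genes at the threshold, and MT-CO1 were named after their values were seen. The members and the 37 gene lists were chosen with earlier results of these data known; 1 further list and some genes are not reported here. ISRE letters were searched in RefSeq promoters, with IFIT2 and LGR5 unmatched, and UAG was counted in GENCODE 29 3′ UTRs. The procedure was tested on simulated counts. Alternatives were other pseudocounts, filters, centring, CPM with TMM factors (which leaves out gene length), and other call rules. TMM factors came from edgeR 4.0.16 in R 4.3.3, intervals from scipy 1.17.1, and the rest from pandas 2.3.3, numpy 2.4.6 and matplotlib 3.10.9 under Python 3.11.15.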

Additional observations from a re-analysis of the deposited data

How the results depend on the processing

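The counts of 29 higher and 19 lower genes depended on how weak genes were treated. They were 45 and 35 with a pseudocount of 0.1, 8 and 9 with a pseudocount of 2, 6 and 8 with a mean of at least 5 cRPKM, 44 and 49 without the interval, and 191 and 95 with a 1.5-fold rule. Without the filter (35 and 25), after centring (27 and 22), with CPM and TMM factors (27 and 27) and for protein-coding genes alone (21 and 13) they stayed within 1.5 times the count. None of the 48 genes counted changed sign under another pseudocount, after centring or with TMM factors. Of 467 other list members whose interval excluded 1, none changed sign with either pseudocount, 1 did after centring (RPL19) and 4 with TMM factors (RPL19, PLK1, RPL13, RPS18), each within 0.033 of 0 on the log2 scale as deposited. Of these 48, 46 remained 2-fold after centring, 38 with CPM and TMM factors, 48 with a pseudocount of 0.1 and 17 with one of 2. ADM2 and ZNF667-AS1 went under the line after centring, at 0.99 and 0.98. The 10 genes that went under it with CPM and TMM factors were all non-coding. List medians that moved by more than their counting interval were protocadherins and cadherins without the filter (-0.027), ribosomal proteins with TMM factors (-0.039), and epithelial markers with a pseudocount of 2 (0.24) and without the filter (0.21). With at least 5 cRPKM the medians of the Notch pathway (0.039 to -0.031), the IGF axis (-0.060 to 0.0089), dense-core vesicle genes (0.019 to -0.080) and the unfolded protein response (0.0057 to -0.012) crossed 0. The cause was not tested. No paired analysis was possible because each group has 1 library, and no replicate could be left out. Depth limits statements on genes with under about 20 reads, where most 2-fold differences had intervals that included 1.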

Other observations

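PTPRN, a dense-core vesicle protein below the filter that was chosen after its values were seen, had 1.29 cRPKM in MSI1 against 0.14 (ratio 9.05), and of 9 dense-core vesicle genes that were compared 5 lay above 0. In Wnt signalling, the receptor FZD10 (1.07 and 0.45 cRPKM, ratio 0.421) and the secreted inhibitor WIF1 (0.43 and 0.98 cRPKM, ratio 2.26) were likewise below the filter and chosen after their values were seen.

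Chromosomes differed in their median log2 fold of MSI1 over empty vector. Chromosome 19 had the highest median of the nuclear chromosomes at 0.13 over 882 genes, and 6 of the 29 higher genes lay on it, which holds 6.96% of the compared genes; the medians of SRRM3 and SRRM4 over the same empty vector were 0.09 and 0.08. Chromosome 6 had a median of 0.11 in MSI1, with 0.01 and -0.03 in SRRM3 and SRRM4. Chromosomes 20 and 11 had the lowest medians in MSI1, -0.10 and -0.08, with -0.14 and -0.16 in SRRM3 and 0.01 and -0.02 in SRRM4. These comparisons share the empty-vector library.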
